A study of Mus musculus with 3 samples.

Results

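The major histone gene cluster on chromosome 13 was described from ATAC-seq peak lists of the mouse dentate gyrus, a subfield of the hippocampus packed with granule neurons. In ATAC-seq the transposase Tn5 inserts adapters into open chromatin, and a peak marks an accessible stretch of DNA. The members of the cluster are the peaks that overlap the 3 Mb from 21 to 24 Mb of chromosome 13 on the build mm9, called the histone window here. There were 138 such peaks of 62912 in replicate 1, 142 of 68699 in replicate 2 and 134 of 48769 in replicate 3. Peaks of different animals that overlapped by at least 1 bp were joined, which gave 152 regions in the window of 84529 in the genome. The 3 Mb on each side served as the contrast and held 268 regions. All samples belong to 1 group labelled E24, a name that the labels do not spell out: 3 C57BL/6 mice aged 8 weeks, each giving its own library of microdissected dentate gyrus. The series is about how activation of neurons changes open chromatin. Samples of any other condition were not analysed here, so no conditions are compared. Peak lists on mm9 give no gene levels, so the labelled tissue was not checked against marker genes.

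The core histones H2A, H2B, H3 and H4 form the protein spool around which DNA is wound, and the linker histone H1 binds where DNA enters and leaves it. Most copies of these proteins are made from small genes without introns that lie together in clusters and are transcribed chiefly while a cell copies its DNA. Neurons of the adult dentate gyrus no longer divide, while the neural stem and progenitor cells of this tissue do, and bulk tissue holds both. A peak therefore cannot be given to 1 of these cell types, and a peak shows open chromatin but no transcript.

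The gene table at hand is on another build, GRCm38, so it was used for names and order and no peak was assigned to a gene. It lists 56 histone genes on this stretch of the chromosome, 54 of them protein coding, in 4 runs along the order of genes. The first run, from H2bc13 to H4bc24, has 19 histone genes. It is followed by 39 other genes, of which 31 are tRNA genes, with Zfp184, Pom121l2 and Prss16 among the rest. A run of 5 histone genes comes next, from H2ac12 to H2bc11. The following stretch of 147 other genes holds 75 vomeronasal receptor genes and pseudogenes of the Vmn1r family, receptors for pheromones in the vomeronasal organ, and 46 tRNA genes. The third run, from H4c8 to H1f1, has 30 histone genes, and Trim38 and a set of Slc17a transporter genes separate it from the last pair, H2bc1 and H2ac1. Of the 60 genes before the first histone gene, 27 are tRNA genes, 10 olfactory receptors and 6 zinc finger genes.

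Promoters of these genes are shown because they carry elements known from histone genes: the CCAAT box, bound by NF-Y, the TATA box, and the octamer, bound by POU factors such as Oct-1 and known from H2B genes. RefSeq promoter sequences of the build GRCm38.p6 were matched by symbol for 51 of the 56 histone genes, 52 promoters in all. In the 250 bases before the start, CCAAT stood on either strand in 84.6% of them, against 33.8% of all 32851 promoters in the table. TATAAA stood in 50% against 12.4%, and the octamer ATTTGCAT in 21.2% against 1.60%. None of the 3 motifs is contained in another. CCAAT stood in all 13 H2A, 14 H2B, 7 H3 and 6 H1 promoters and in 3 of 11 H4 promoters, while the octamer was found in 5 of the H2A and 6 of the H2B promoters and in no promoter of the other classes. A match is a stretch of letters, not a bound site. The 4 promoters below, 1 for each of 4 histone classes, are those with most of the 3 motifs in their class. Capitals mark the 3 motifs on either strand, and the positions are on GRCm38.p6 and do not correspond to the mm9 positions of the peaks.
H1f3 (H1, chr13:23554782-23555031, plus strand): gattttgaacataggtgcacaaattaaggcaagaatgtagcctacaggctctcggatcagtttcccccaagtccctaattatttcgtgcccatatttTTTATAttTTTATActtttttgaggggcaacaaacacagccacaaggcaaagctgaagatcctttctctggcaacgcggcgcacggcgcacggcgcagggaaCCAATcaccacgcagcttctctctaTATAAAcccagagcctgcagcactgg
H2ac1 (H2A, chr13:23934187-23934436, plus strand): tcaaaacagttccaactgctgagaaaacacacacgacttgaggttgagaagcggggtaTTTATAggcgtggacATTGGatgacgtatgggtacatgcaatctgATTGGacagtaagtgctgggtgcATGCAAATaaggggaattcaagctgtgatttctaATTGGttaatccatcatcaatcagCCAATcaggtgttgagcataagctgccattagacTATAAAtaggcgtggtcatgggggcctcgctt
H3c4 (H3, chr13:23575513-23575762, plus strand): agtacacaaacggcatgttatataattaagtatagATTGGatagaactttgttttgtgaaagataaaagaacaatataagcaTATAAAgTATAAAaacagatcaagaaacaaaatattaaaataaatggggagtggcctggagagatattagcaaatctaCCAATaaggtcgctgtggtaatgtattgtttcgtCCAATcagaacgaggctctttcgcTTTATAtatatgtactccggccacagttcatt
H4c4 (H4, chr13:23581318-23581567, plus strand): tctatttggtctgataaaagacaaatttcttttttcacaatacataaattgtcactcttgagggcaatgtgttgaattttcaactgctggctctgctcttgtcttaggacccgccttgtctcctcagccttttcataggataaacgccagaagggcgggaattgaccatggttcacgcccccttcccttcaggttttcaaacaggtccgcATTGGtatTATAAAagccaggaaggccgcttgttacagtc
The H2ac1 sequence also serves H2bc1 on the other strand, since their windows overlap by 220 of 250 bases. There were 9 facing pairs of an H2A and an H2B gene with overlapping windows. A motif in such an overlap was counted for both genes, as was the octamer of H2ac1 and H2bc1. Some promoters are near copies of each other: that of H2bc23 equals that of H4bc24 over all 250 bases, and those of H4c17 and H4c18 share a run of 249 bases. These copies were counted as separate promoters, so the motif counts above are not counts of independent sites. Of 1315 pairs of promoters from separate places, 6 shared a run of 50 bases or more, which involved 8 genes. How reads that fit several copies were placed is not given in the sources used here, and the effect of this on the peaks was not tested.

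Accessible regions of the histone window were closer together, wider and higher in score rank than those of its flanks. The window held 46.0 ± 1.3 peaks per Mb (SD, n = 3) and the flanks 34.3 ± 2.9. The ratio within each animal was 1.31 in replicate 1, 1.29 in replicate 2 and 1.44 in replicate 3, a mean of 1.35 ± 0.08 (SD, n = 3). This ratio depended on the stretch used as contrast. It was 1.13 ± 0.06 against the 3 Mb before the window, 1.67 ± 0.14 against the 3 Mb after it, and 1.09 ± 0.13 (SD, n = 3) against 1 Mb on each side, so an excess in the number of peaks over the nearest surroundings did not exceed the spread between animals. The excess in bases covered was larger: peaks covered 4.82%, 4.76% and 3.39% of the window in replicates 1, 2 and 3, against 2.26%, 2.45% and 1.44% of the flanks, a ratio of 2.14 ± 0.20 (SD, n = 3). An exact two-sided sign-flip permutation test over 3 animals cannot give a p below 0.25, so no difference in this text has a p-value.

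**Figure D1:**
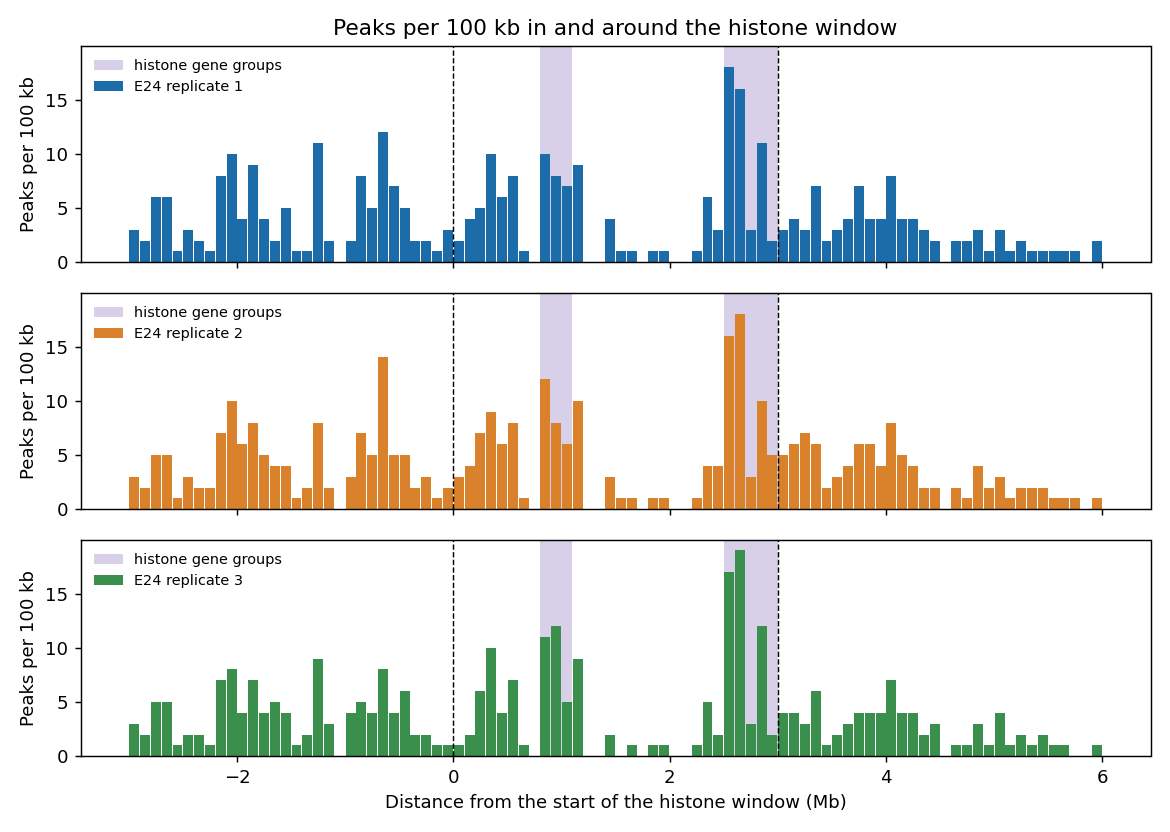
Number of peaks per 100 kb (vertical axis) against distance from the start of the histone window in Mb, for the 3 animals, with peaks assigned by midpoint. Dashed lines mark the window and shading the histone gene groups; the tallest bars, 16 to 19 peaks, lie at the start of the second gene group in every animal.

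Median peak widths in the window were 925.5, 881 and 630.5 bp in replicates 1, 2 and 3, against 549, 544.5 and 371 bp in the flanks. The ratio was 1.67 ± 0.04 (SD, n = 3), larger than the spread between animals. Neighbouring peak starts lay 7.47 ± 0.45 kb apart in the median inside the window and 17.54 ± 1.99 kb in the flanks. To rank peaks, the authors' score of each was turned into its percentile rank within the same list, from 0 to 100, with ties given their mean rank. The median peak of the window stood at the percentiles 81.5, 76.7 and 79.3 in replicates 1, 2 and 3, and that of the flanks at 54.4, 53.4 and 50.8. Peaks of the highest-scoring 10% of a list made up 34.1%, 33.8% and 33.6% of the window, and 11.4%, 10.5% and 9.14% of the flanks.

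Width and score rank go together in these lists, with a Spearman correlation across peaks of the window of 0.81 in replicates 1 and 2 and 0.75 in replicate 3. Widths were therefore also compared at like rank. Among peaks of the highest-scoring 10%, the median width in the window was 1383, 1341.5 and 1122 bp in replicates 1, 2 and 3, against 1142, 1199 and 945 bp in the flanks. For percentiles from 75 to 90 the medians were 992, 976 and 656 bp against 772, 829 and 564 bp. Window peaks were wider than flank peaks in every animal in both classes. In the lowest 25% of scores, the mean of the medians was 342 bp in the window and 334 bp in the flanks.

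Of the 152 regions, 110 (72.4%) had a peak in all 3 animals, with an exact 95% binomial interval of 64.5% to 79.3%, which covers counting error over regions only. This share was 54.1% in the flanks (145 of 268), with an interval of 47.9% to 60.2%, and 43.6% in the genome. A further 19 regions were held by 2 animals and 23 by 1. Sharing was also set beside score rank. At percentiles over 90, 100% of the peaks of each animal had a peak in both others, in the window as in the flanks. In the lowest 25% of scores, the share was 33.3% ± 22.2 in the window and 27.7% ± 17.8 in the flanks (SD, n = 3), a difference within the spread between animals.

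Histone genes were taken to lie in 2 groups, 0.8 to 1.1 Mb into the window (group 1) and 2.5 to 3 Mb into it (group 2). No gene positions on mm9 were at hand to check these limits. The 4 runs of histone genes in the GRCm38 order were not matched to them, so histone genes may also lie in the rest of the window. The 0.8 Mb of the gene groups held 75 of the 138 peaks of replicate 1, 78 of the 142 of replicate 2 and 81 of the 134 of replicate 3. Peak density in group 1 was 83.3, 86.7 and 93.3 per Mb in replicates 1, 2 and 3. In group 2 it was 100, 104 and 106 per Mb. The rest of the window held 28.6, 29.1 and 24.1 per Mb, so the gene groups stood at 3.61 ± 0.52 times its density (SD, n = 3), with no overlap between animals. Against the flanks, the density was 2.58 ± 0.37 times as high in group 1 and 3.03 ± 0.33 times in group 2, while the rest of the window stood at 0.79 ± 0.02. Peaks covered 9.53% ± 1.75 of group 1 and 10.33% ± 1.70 of group 2 (SD, n = 3).

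The gene groups differed from each other in peak width and rank. Group 1 had the wider median peak, 1254, 1085 and 874 bp in replicates 1, 2 and 3, against 945.5, 919 and 627 bp in group 2, a ratio of 1.30 ± 0.11 (SD, n = 3). Its median percentile was higher by 11.5, 8.58 and 12.8 points, with 90.1, 83.6 and 87.1 in group 1. Neighbouring starts were closer in group 2, at 5.71, 5.71 and 4.91 kb, than in group 1, at 8.37, 7.19 and 7.04 kb. All 3 animals shared 20 of 27 regions of group 1 and 42 of 55 of group 2. Group 2, with 0.5 Mb against 0.3 Mb, thus held more and closer regions of lower rank, while group 1 held fewer, wider in the median. Regions wider than 2 kb were about as frequent in both, at 14.8% of group 1 and 16.4% of group 2.

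The gene groups were not the only accessible stretches. In the first 0.8 Mb, before group 1, the density was 43.8 ± 4.5 per Mb, and the median peak was 915 ± 121 bp wide and stood at the percentile 83.5 ± 2.6 (SD, n = 3). In width and rank these peaks thus lay with those of the gene groups. The stretch from 0.2 to 0.6 Mb, whose limits were picked after the values were seen, was denser, at 71.7 ± 3.8 per Mb. Its median percentile was 89.9 ± 1.5 (SD, n = 3). Set against the whole rest of the window, the gene groups differed in median percentile by 1.80, 7.79 and -2.29 points in replicates 1, 2 and 3, a difference of 2.43 ± 5.07 (SD, n = 3) that is within the spread between animals. Between the groups the density was 17.9 ± 1.9 per Mb, 0.52 ± 0.02 times that of the flanks, and the median width 528 ± 86 bp, close to that of the flanks.

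**Figure D2:**
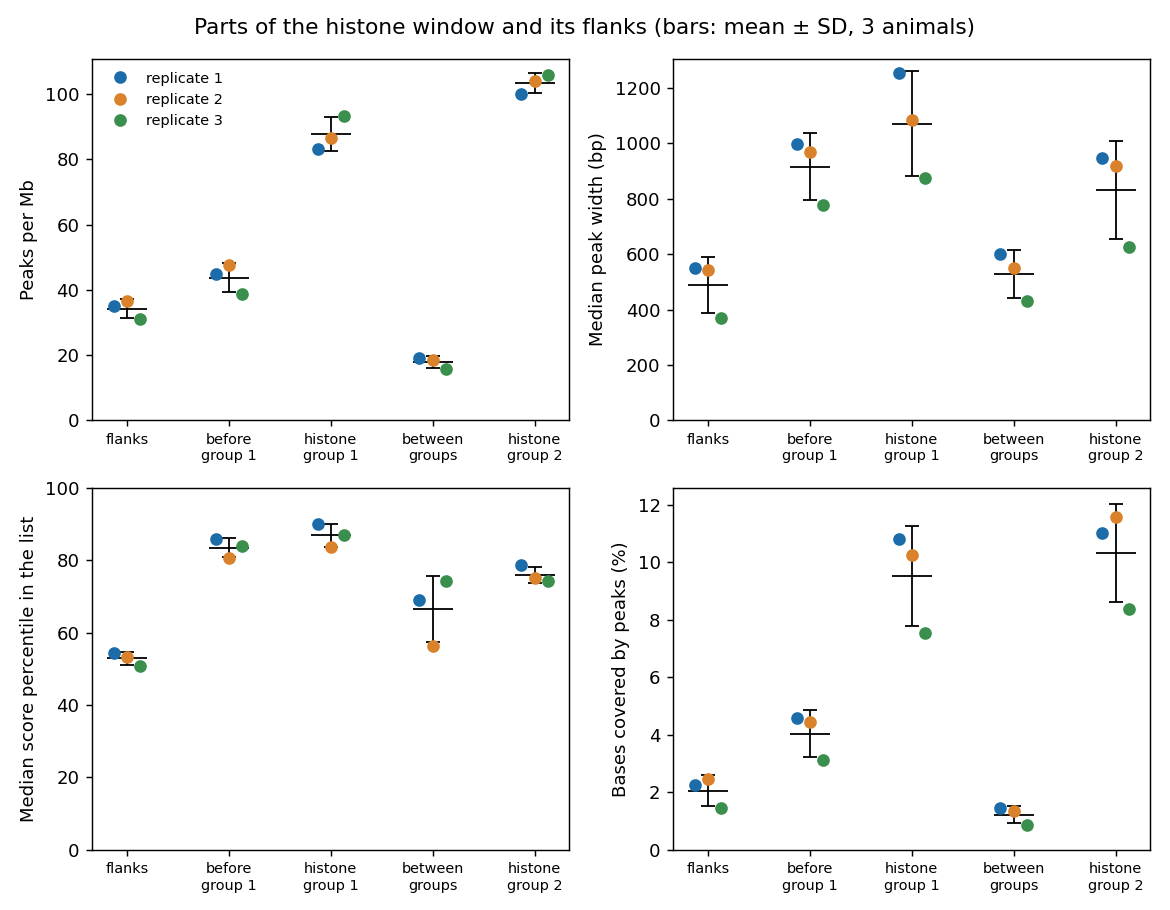
Peaks per Mb, median peak width in bp, median score percentile and percent of bases covered (vertical axes) for the flanks and the 4 parts of the histone window. Points are the 3 animals and bars their mean ± SD; both histone groups lie above the flanks in every animal and panel, and the part between the groups lies below them in density and coverage.

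Of the windows of 100 kb, the fullest ran from 2.6 to 2.7 Mb in group 2. It held 18 regions, 16 of them shared, that is, held by all 3 animals, with 16, 18 and 19 peaks in replicates 1, 2 and 3, and peaks covered 21.81%, 23.93% and 17.11% of its bases. The window from 2.5 to 2.6 Mb followed with 15 shared regions and 18, 16 and 17 peaks. Shared regions there had a median width of 790 bp, against 1467 bp in the neighbouring 100 kb. Over the whole genome, 3 of 25808 windows of 100 kb held 15 or more shared regions, and these 2 were among them. The limit of 15 is the count of the second of these windows, which were picked as the fullest, so this is a description only. The window from 0.3 to 0.4 Mb, outside the gene groups, came next with 9 shared regions and 10, 9 and 10 peaks, tied with the first window of group 1. In group 1, the 100 kb windows held, in order, 9, 7 and 4 shared regions, and in group 2 they held 15, 16, 3, 7 and 1. The densest part of group 2 was its first 200 kb. The next 100 kb held only the 3 regions of very high rank described below, and the last 100 kb had few, with 2, 5 and 2 peaks.

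Of the 30 windows of 100 kb, 9 held 5 or more shared regions, against 7 of 60 in the flanks and 4.15% of the windows of the genome. In contrast, 6 held no peak in any animal, against 3 of 60 in the flanks. The longest empty stretch ran from 22924301 to 23230614 (306 kb), followed by those from 22143612 to 22413543 (270 kb) and from 22606816 to 22839429 (233 kb), all between the gene groups. Between 1.2 and 2.3 Mb into the window there were 9 regions in all, 6 of them held by every animal. The longest empty stretch of the flanks was 209 kb. Repeats and assembly gaps were not examined. In the GRCm38 gene order the Vmn1r receptors lie between the second and the third histone run, but the empty stretches were not matched to these genes.

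Stretches of 100 kb or more without a peak divide the window into 8 runs of regions, a description chosen after the values were seen. Of the 110 shared regions, 101 (91.8%) lay in 3 of these runs. The first ran from 21250545 to 21623418, before group 1, with 26 shared regions and 30, 31 and 28 peaks in replicates 1, 2 and 3. The second, from 21801725 to 22143611, held group 1 and went on past its limit, with 28 shared regions and 34, 36 and 37 peaks. The third, from 23360864 to 23985548, began before group 2 and held it, with 47 shared regions and 59, 60 and 60 peaks. Widening both gene groups by 100 kb gave a density 3.30 ± 0.43 times that of the remaining window (SD, n = 3).

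**Figure D3:**
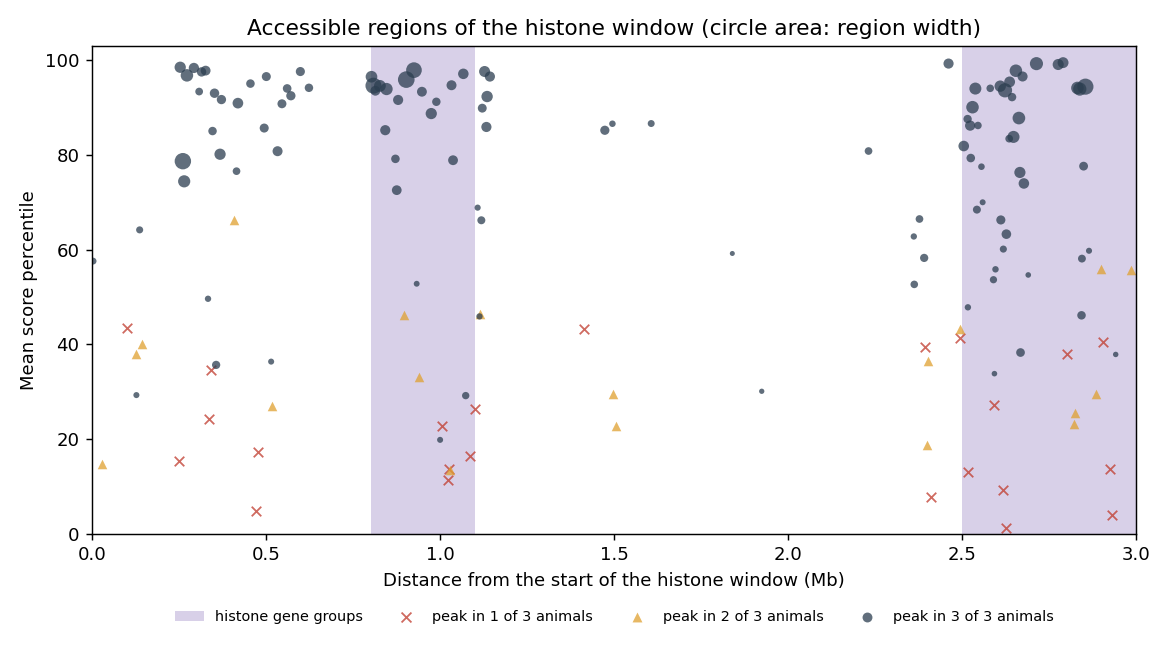
Mean score percentile (vertical axis) of the 152 regions against distance from the start of the histone window in Mb, with symbols for the number of animals holding a peak and circle area for the width of regions held by all 3. Wide regions of high rank lie in 3 dense stretches, and regions held by 1 animal lie at or below the percentile 43.4.

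The region of highest rank lay in group 2. The region from 23789214 to 23790857 (1644 bp) stood at the percentiles 99.6, 99.3 and 99.5 in replicates 1, 2 and 3. That from 23712382 to 23714756 (2375 bp) stood at 99.3, 99.2 and 99.3, and that from 23775254 to 23776952 (1699 bp) at 99.3, 99.5 and 98.5. These 3 are the only regions of their 100 kb, and the ranks of each differed by less than 1 point between animals. They are unevenly spaced: the region from 23712382 lies apart, and the others lie closer together. In group 1 the highest was a region of 3392 bp from 21923013 to 21926404, at 99.0, 99.1 and 95.6. The fifth, from 23653401 to 23655570 (2170 bp), stood at 97.7, 98.1 and 97.5. Both of the last were 1 peak in replicates 1 and 2 and 2 peaks in replicate 3.

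Outside the gene groups, the highest rank belonged to the region from 23460255 to 23461675 (1421 bp), at 99.1, 99.5 and 99.1. It was the 1 region of 5 in its 100 kb window that all 3 animals held. The other two lay in the first run, from 21252100 to 21253857 (1758 bp) at 98.9, 97.6 and 99.0, and from 21291545 to 21292997 (1453 bp) at 99.1, 98.1 and 97.9. In all, 39 of the 152 regions (25.7%) were among the highest-scoring 10% in every animal, against 5.1% of all regions of the genome and 5.97% of the flanks. Group 1 held 10 of these, group 2 held 11, the part before group 1 held 14 and the part between the groups 4. High rank was thus shared by both gene groups and the part before them.

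Regions wider than 2 kb numbered 16 (10.5%), against 1.35% in the genome and 3 of 268 in the flanks, and 13 of the 16 lay in the gene groups. The widest, from 21900721 to 21904538 in group 1 (3818 bp), stood at the percentiles 98.7, 95.9 and 93.1. The next, from 21258777 to 21262494 (3718 bp), had a lower rank, 79.5, 77.6 and 78.9, and lay before group 1. The region from 23852441 to 23856039 (3599 bp) in group 2 stood at 94.6, 93.6 and 94.99. A joined region runs over all its peaks, so its width is not the length open in each animal: the widest covered 3084 bp in replicate 1, 3818 bp in replicate 2 and 2227 bp in 2 peaks of replicate 3. The 110 shared regions had a median width of 1148.5 bp and middle 50% from 796 to 1638.5 bp, against a median of 655 bp in the flanks and 692 bp in the genome.

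Replicate 3 has the shortest list, yet it had nearly as many peaks in the histone window as the others. Its number of peaks was 0.97 times that of replicate 1 in the window, 0.88 times in the flanks and 0.78 times in the genome. In the gene groups the factor was 1.12 for group 1 and 1.06 for group 2. Some regions were a single peak in 1 animal and more than 1 peak in another. Among the 110 shared regions, replicate 3 had more than 1 peak in 16 (14.5%), replicate 2 in 4 (3.64%) and replicate 1 in 2 (1.82%). In the same order, the shares were 4.14%, 0% and 2.07% in the flanks and 4.39%, 0.97% and 1.41% in the genome. Of the 16, 14 lay in the gene groups, which held 62 of the 110 shared regions. Counted as regions, 118 had a peak of replicate 3, against 136 of replicate 1 and 137 of replicate 2, a factor of 0.87 to replicate 1, which was 0.87 in the flanks and 0.76 in the genome. To replicate 2 the factor was 0.86 in the window, 0.82 in the flanks and 0.69 in the genome. In the gene groups together it was 0.92 to replicate 1 and 0.91 to replicate 2. Its peaks were also narrower, with a median width of 0.68 times that of replicate 1 in the window, as in the flanks at 0.68 and in the genome at 0.70.

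The 3 animals ranked the shared regions of the window in nearly the same order. Across the 110 regions, which are not independent replicates, the Spearman correlation of score percentiles was 0.94 for replicates 1 and 2, 0.92 for 1 and 3, and 0.91 for 2 and 3. Over the 145 shared regions of the flanks it was 0.86, 0.78 and 0.77, and over the 36824 of the genome 0.88, 0.79 and 0.78. Shared regions of the window stood higher on the percentile scale, at a median of 86.0 against 63.7 in the flanks. Whether this bears on the agreement was not tested. The lowest and the highest percentile of a shared region of the window lay 7.24 points apart in the median, and under 10 points in 66 of the 110. More than 40 points separated them in 5 regions, such as a region of 431 bp in group 2 from 23592617 to 23593047, which stood at 7.84, 61.3 and 32.2 in replicates 1, 2 and 3. Another, of 555 bp, from 21332645 to 21333199, stood at 81.9, 31.4 and 35.5. These 2 regions, both narrow, were picked by their values.

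**Figure D4:**
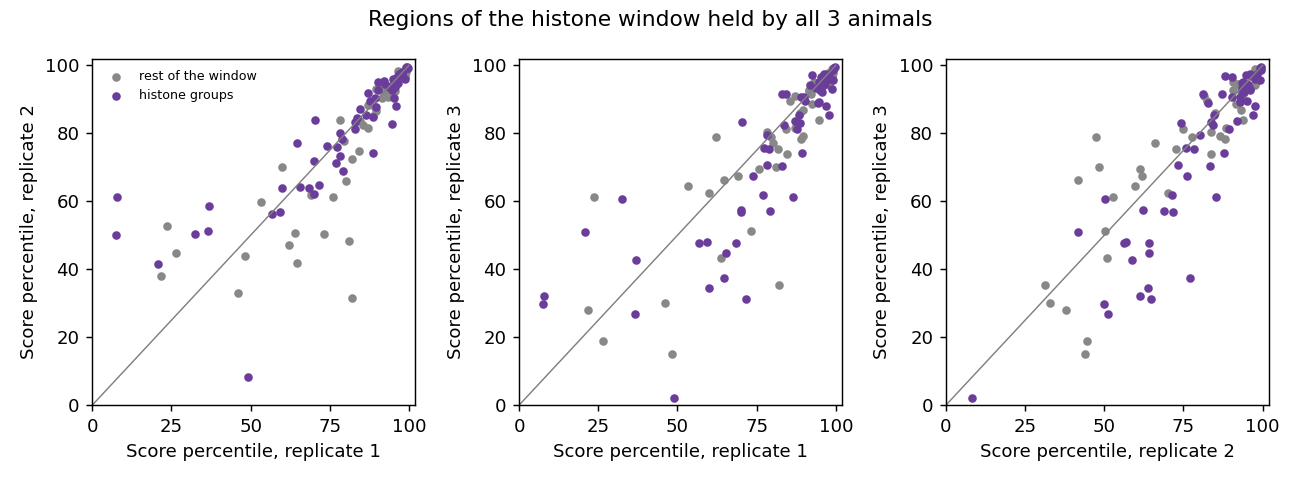
Score percentile of each of the 110 shared regions in one animal against another, for the 3 pairs of animals, with regions of the histone gene groups in purple and the rest of the window in grey. Points crowd along the diagonal above the percentile 80 and scatter below it.

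Regions found in 1 animal were narrow and low in rank. Of the 23 such regions, the median width was 384 bp and the median percentile 17.2. Replicate 1 alone held 10, replicate 2 alone 11 and replicate 3 alone 2. The highest of replicate 1 lay from 22413544 to 22414016 (473 bp) at the percentile 43.2, that of replicate 2 from 21099443 to 21099786 (344 bp) at 43.4, and that of replicate 3 from 21340926 to 21341238 (313 bp) at 34.5. None of the 3 lay in a gene group. For the 19 regions of 2 animals the median width was 470 bp, and 13 of them were those of replicates 1 and 2.

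The limits of the window cut through no peak. The region nearest inside its start, from 21002225 to 21002878, stood at 64.6, 41.8 and 66.3, and the nearest outside, from 20993569 to 20994013, was held by replicate 1 alone at 8.23. At the other end, the last region inside, from 23985017 to 23985548, was held by replicates 1 and 2 at 59.99 and 51.2. The first outside, from 24019982 to 24020329, was held by replicates 2 and 3 at 23.8 and 19.7.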

How the data were processed

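Bowtie2 and the build mm9 are named per the submitters' processing notes, and the peak names in the deposited lists are those that MACS writes. The sources used here do not state versions, settings, the treatment of duplicates or a Tn5 offset. The authors deposited 1 peak list per animal, with position and a score that has no unit and depends on depth, so the deposited score was used only as a percentile within its list. The files hold no read counts, so depth is unknown and the number of animals limits the precision.

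Peaks overlapping a part were counted in it. Windows of 100 kb took peaks by midpoint, spacing is the distance between neighbouring starts of 1 animal, and positions count from 1 on mm9. The window, gene groups and named regions were chosen with earlier results of these data known. Regions were named by fixed rules: the highest percentile (5 in the gene groups, 3 elsewhere), the 3 widest, the highest of each single animal, the 3 longest empty stretches, the 3 fullest windows and those at the limits. Alternatives covered the flanks, overlap, score limits, list lengths and leaving out each replicate. Joining, sharing and spacing were tested on simulated lists. The work was done in Python 3.11.15 (numpy 2.4.6; scipy 1.17.1; pandas 2.3.3), with matplotlib 3.10.9 for figures.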

Additional observations from a re-analysis of the deposited data

How the results depend on the processing

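Of 68 alternative values for 9 results, 48 moved by less than the spread between animals and 20 moved further. The count of shared regions was judged by a factor of 1.5 instead, and their share by the binomial interval. A change of direction was looked for only in the ratios of density, width and spacing, and none of these changed direction. Counts, shares and the percentile could not be called reversed. Taking peaks by midpoint returned the main value for each of the 9 results, because the limits cut no peak. Those values are among the 48 and lend no support. With the highest-scoring 50% of each list, the window held 104 peaks, and the ratios to the flanks were 1.88 for density, 1.62 for width and 0.26 for spacing. The median percentile was then 76.2, but scores were ranked anew within the cut lists. This value is therefore on another scale than the main one and cannot be set against it. With equal numbers of top peaks in every list there were 128 peaks and a density ratio of 1.46. The density ratio was 1.09 against 1 Mb on each side, 1.72 against the rest of chromosome 13, 1.95 against all autosomes and 2.14 in bases covered. The width ratio was 1.76 against chromosome 13 and 1.79 against autosomes, and the spacing ratio 0.51 against 1 Mb on each side and 0.35 against autosomes. Asking for 50% reciprocal overlap lowered the shared regions to 50% and the share of an animal's peaks with a partner in both others from 85.2% to 63.0%. Leaving out 1 replicate raised the share of regions held by all remaining animals to between 80.1% and 81.5%, as fewer lists must match. For means over 3 animals, leaving 1 out cannot move the value by more than the SD, so those alternatives lend no support. No paired analysis was possible because the samples form 1 group, so no groups can be paired by replicate number; window and flanks were set against each other within each animal. With depth unknown, absence of a peak does not show closed chromatin.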
